A study of Mus musculus with 28 samples.

Results

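Navitoclax (ABT263, labelled NAVI) was compared directly with dasatinib plus quercetin (labelled DQ) in the hippocampus of wild-type (WT) mice. The comparison rests on 8 of the 28 libraries of the study, 4 from NAVI mice and 4 from DQ mice, taken by their genotype and treatment labels. The study profiled bulk hippocampal messenger RNA of female mice that received one of these senolytic treatments or vehicle. The libraries form 7 groups of 4: NAVI, DQ and vehicle (Veh) in WT, and NAVI, DQ and the vehicles VehN and VehD in 3xTg. The WT animals carry the genotype label BL6/129, a mixed background, and have neither human transgene of the 3xTg-AD line. That line expresses mutant human amyloid precursor protein and tau from a neuronal Thy1 promoter cassette, together with a mutant presenilin knock-in, and serves as a model of Alzheimer's disease. Age, dose, schedule and litter are not given in the labels, and neither is a statement that each library is a separate animal. The p-values therefore set differences against the spread between libraries, estimated over all 28, and not against a known spread between animals. Whether the WT vehicle was that of NAVI or that of DQ is not given either.

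Both treatments are senolytics, agents chosen to kill senescent cells. Navitoclax occupies the groove of BCL-2, BCL-XL and BCL-W that otherwise holds pro-apoptotic BH3 proteins, so that cells relying on those guards can die. Dasatinib blocks SRC-family, ABL, KIT, PDGF receptor and ephrin receptor kinases, and quercetin is a plant flavonoid with broad kinase and antioxidant actions. Senescent cells are defined by a stable arrest of the cell cycle, held by inhibitors such as Cdkn1a and Cdkn2a, and by the secretion of cytokines and matrix-remodelling factors.

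The libraries held 43289460 to 54019519 counts with NAVI and 35244835 to 45325200 with DQ in WT, and 33947830 to 46338962 with Veh in WT. Of 24062 genes, 16369 passed the low count filter. Markers of the hippocampal fields were present in all groups. Wfs1, a marker of CA1 pyramidal cells, averaged 109 ± 23.8 CPM with NAVI and 126 ± 15.6 CPM with DQ (SD, n = 4 each), where CPM are counts scaled to library size. Markers of tissue around the hippocampus differed among libraries within groups and are described after the genes.

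Few genes separated the treatments. At an adjusted p under 0.05, 11 of 16369 genes differed (percent called 0.0672), of which 7 were higher with NAVI (0.0428%) and 4 were lower (0.0244%). Cthrc1, Mtmr12, Polr2k, Pkdrej, Nudcd1, Baalc and Rpl3 were higher with NAVI, and Erich5, Card10, Jrk and Poldip3 were lower. In all 11 the NAVI and DQ libraries did not overlap, which was true of 4.01% of all tested genes. The median log2 difference over all tested genes was 0.01, and 1611 genes (9.84%) had an unadjusted p under 0.05. All 11 lie on chromosome 15, which holds 633 of the tested genes (3.87%). The WT label is a mixed background and the labels do not give the parental origin of chromosome 15 in each library. Differences in inherited alleles between the 4 NAVI and the 4 DQ libraries were not tested, and from these counts they cannot be told apart from differences by treatment. DESeq2 called 38 genes, all 11 among them, of which 21 are on chromosome 15 and 17 elsewhere. In bulk tissue, fewer cells of a type and less RNA per cell cannot be told apart.

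Cthrc1 encodes a secreted glycoprotein with a collagen-like repeat that acts in matrix remodelling and Wnt signalling. It lies at chr15:39076932-39087121 on the plus strand (GRCm38.p6). Its levels were 5.32, 5.52, 3.28 and 4.28 CPM with NAVI, against 0.831, 0.777, 0.673 and 0.819 CPM with DQ. Every NAVI library was several times higher than every DQ library, and the DQ libraries were close to each other. The log2 difference was 2.56 (SE 0.237, 95% interval 2.08 to 3.05), a 5.91-fold difference, with an edgeR adjusted p of 1.03e-06. With Veh the level was 2.95, 3.78, 2.23 and 2.72 CPM, between the treated groups. It was the gene with the largest difference of the 11, and it stayed called when only the 8 libraries compared were fitted (edgeR adjusted p = 0.00218).

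Erich5 encodes a glutamate-rich protein of little known function, and lies at chr15:34453312-34473892 on the plus strand. Its levels were 2.25, 2.25, 5.91 and 2.83 CPM with NAVI and 8.93, 11.2, 9.22 and 8.90 CPM with DQ. NAVI library 3 stood well above the other NAVI libraries, though below all DQ libraries. The log2 difference was -1.53 (SE 0.220, edgeR adjusted p = 0.00149), so that the level was 2.89-fold lower with NAVI. With Veh the libraries were tightly grouped at 5.75, 6.77, 6.31 and 6.0 CPM, again between the treated groups. Fitted on the 8 libraries alone, the difference was -1.54 and no longer passed (edgeR adjusted p = 0.352).

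**Figure D1:**
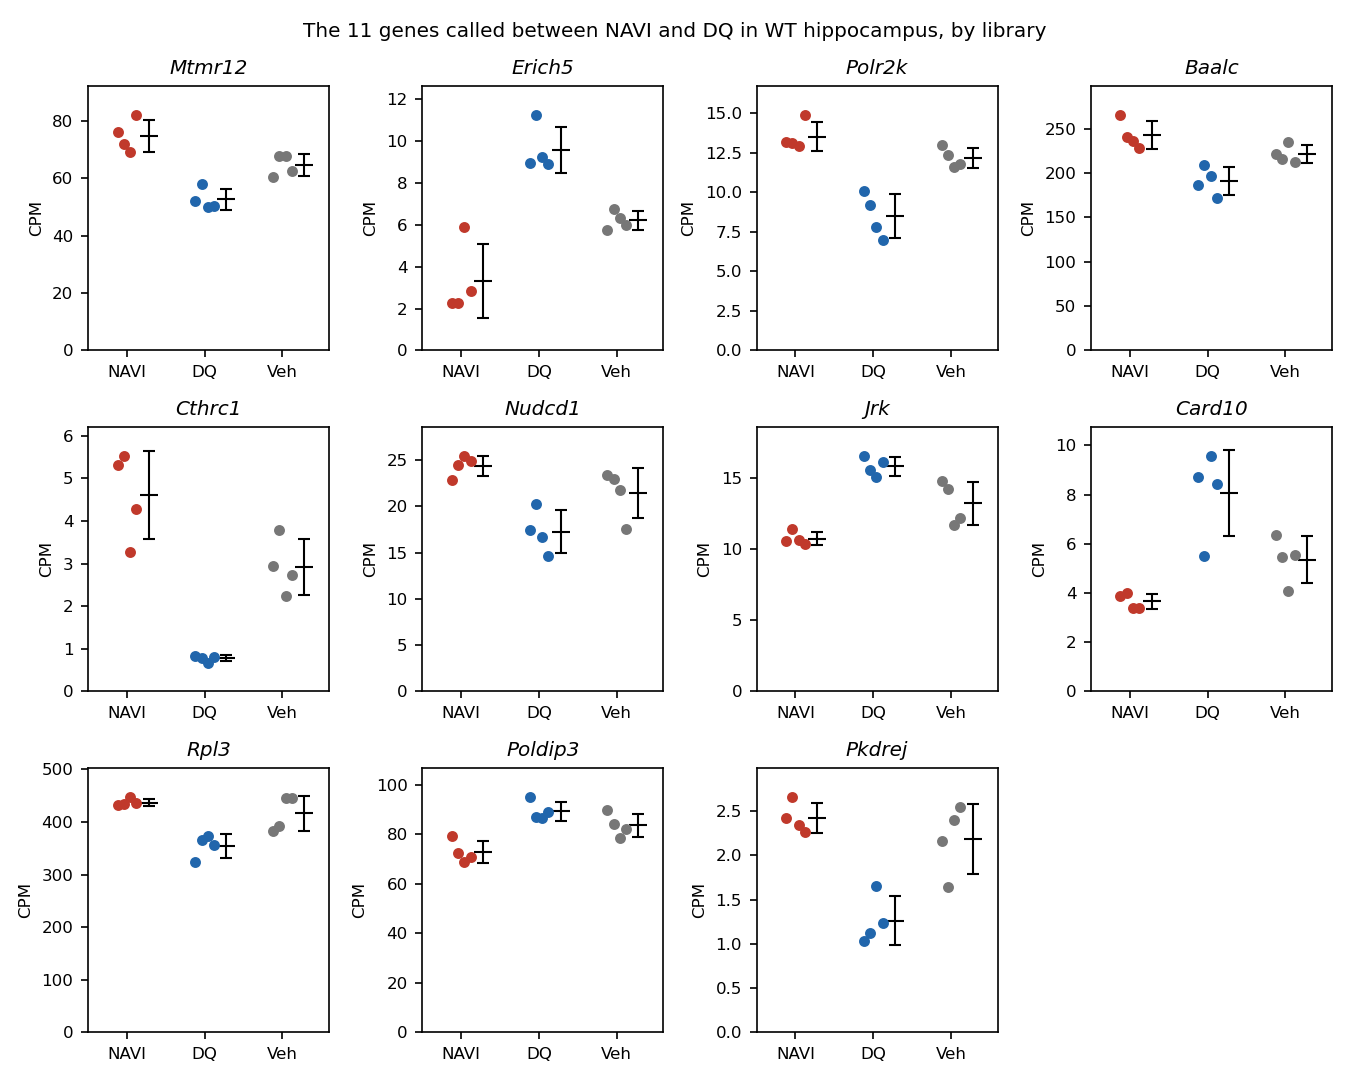
Level (CPM, linear axis from 0) of the 11 called genes in each WT library with NAVI (left, red), DQ (blue) and Veh (grey), in order along chromosome 15; horizontal ticks and bars are the mean and SD of 4 libraries. In each panel the NAVI and DQ points do not overlap and the Veh mean lies between theirs, as for Cthrc1 at 4.6, 0.775 and 2.92 CPM with NAVI, DQ and Veh.

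Several of the others act in transcription and in the making or handling of RNA. Polr2k encodes a small subunit shared by the nuclear RNA polymerases. It had 13.1, 13.1, 12.9 and 14.8 CPM with NAVI and 10.1, 9.18, 7.79 and 6.97 CPM with DQ, which gave a difference on the log2 scale of 0.67 (SE 0.103, edgeR adjusted p = 0.00355). The NAVI libraries were nearly equal apart from a higher library 4, while the DQ libraries were spread. Jrk, whose product is a nuclear RNA- and DNA-binding protein derived from a transposase and whose loss causes seizures in mice, went the other way. Its levels were 10.6, 11.4, 10.7 and 10.4 CPM with NAVI and 16.5, 15.6, 15.1 and 16.1 CPM with DQ (log2 difference -0.56, SE 0.0875, edgeR adjusted p = 0.00371). Both groups were tight and far apart. Poldip3, which encodes an adaptor for messenger RNA export and translation, was also lower with NAVI, at 79.3, 72.4, 69.0 and 70.7 CPM against 94.9, 87.2, 86.4 and 89.0 CPM with DQ (log2 difference -0.30, SE 0.0536, edgeR adjusted p = 0.0206). Rpl3, a protein of the large ribosomal subunit near its catalytic centre, was the most highly counted of the 11. It had 432, 434, 447 and 436 CPM with NAVI against 323, 365, 374 and 356 CPM with DQ, which gave a difference on the log2 scale of 0.30 (SE 0.0544, edgeR adjusted p = 0.0206).

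The remaining genes serve membranes, signalling and trafficking. Mtmr12 encodes a catalytically inactive myotubularin that binds and stabilises active phosphoinositide phosphatases. It had 76.0, 71.9, 69.2 and 81.9 CPM with NAVI against 52.2, 58.1, 50.0 and 50.2 CPM with DQ (log2 difference 0.51, SE 0.061, edgeR adjusted p = 9.84e-05), with a clear gap between the groups. Card10 encodes a scaffold that links receptors to NF-kappaB outside lymphoid cells. It had 3.86, 4.0, 3.40 and 3.40 CPM with NAVI and 8.73, 5.52, 9.56 and 8.45 CPM with DQ, which gave a difference on the log2 scale of -1.14 (SE 0.204, edgeR adjusted p = 0.0206). DQ library 2 was nearest to the NAVI libraries.

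Baalc, a membrane-associated protein of brain and neuroectoderm, had 265, 241, 236 and 228 CPM with NAVI against 187, 209, 196 and 172 CPM with DQ (log2 difference 0.34, edgeR adjusted p = 0.0301). Nudcd1, a relative of the dynein co-factor NudC, had 22.9, 24.4, 25.4 and 24.9 CPM with NAVI against 17.5, 20.3, 16.7 and 14.7 CPM with DQ (log2 difference 0.50, edgeR adjusted p = 0.0350). Pkdrej, a polycystin relative best known from sperm, was low in all libraries, at 2.42, 2.66, 2.34 and 2.26 CPM with NAVI against 1.03, 1.12, 1.66 and 1.24 CPM with DQ (log2 difference 0.94, edgeR adjusted p = 0.0301). Differences of these 3 genes passed the threshold by a small margin, and in 7 of 8 fits that left out a single library each of them missed it.

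Fits without a library, or with fewer groups, sort the 11 genes. Cthrc1, Mtmr12, Erich5, Polr2k and Jrk stayed called in all 8 fits that left out a NAVI or a DQ library, and the other 6 in 1 to 3 of them. The count of called genes was 5 without DQ library 1, 18 without DQ library 2, 7 without DQ library 4, 5 without NAVI library 2 and 6 without NAVI library 4. Fitted on the 12 WT libraries or on the 8 compared, only Cthrc1 was called, with an edgeR adjusted p of 3.22e-04 over the 12. The direction was the same in every one of these fits for all 11. Exons of Jrk and Baalc overlap an antisense gene, those of Nudcd1 overlap Eny2 on the other strand, and those of Rpl3 overlap a small nucleolar RNA gene. The sources used here do not state the strand setting of the counting, so the counts of Jrk, Baalc and Nudcd1 are uncertain. Those of Rpl3 are uncertain because the small nucleolar RNA gene lies on the same strand. They are so also because ribosomal protein genes have many near-identical copies.

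Just outside the threshold, Laptm4b, a lysosomal membrane protein gene on chromosome 15, had 115, 115, 96.1 and 116 CPM with NAVI against 92.5, 91.4, 87.0 and 96.9 CPM with DQ (log2 difference 0.27, edgeR adjusted p = 0.0628). NAVI library 3 lay within the DQ range, as the same library lay nearest to the DQ libraries at Cthrc1 and Erich5. Of the next 10 genes by p, Laptm4b, St3gal1 (-0.44), Abcd2 (0.38), Sub1 (0.48) and 6030458C11Rik (0.32) are on chromosome 15, with log2 differences in parentheses. The others were Sae1 (0.25), 9830147E19Rik (0.51) and Eps8l1 (-1.15) on chromosome 7, Snapc1 (0.60) on chromosome 12 and Ror2 (-1.73) on chromosome 13. Their edgeR adjusted p-values ran from 0.0628 to 0.134. Of the first 21, 50 and 100 genes by p, 16, 25 and 33 are on chromosome 15.

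Chromosome 15 also had the highest share of low p-values over all its tested genes. An unadjusted p under 0.05 was found for 131 of 633 genes (20.7%), 71 higher and 60 lower with NAVI, against 5.64% (chromosome X) to 12.3% (chromosome 18) on the other 19 chromosomes. NAVI and DQ libraries did not overlap for 9.48% of its genes, against 2.28% to 4.90% elsewhere. The genes were not spread evenly along it. Between 10 and 20 Mb, 11 of 23 tested genes (47.8%) had an unadjusted p under 0.05 and all 11 were higher with NAVI, Mtmr12 among them. Between 30 and 40 Mb the number was 22 of 51 (43.1%), with 4 called genes (Erich5, Polr2k, Baalc and Cthrc1). Between 70 and 80 Mb 28 of 156 genes had such a p and 24 of those were lower with NAVI, Jrk and Card10 among them. Neighbouring genes are not independent, so these are counts with no test of the chromosome.

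The called genes are spread along the chromosome. Their start positions run from 12.2 to 85.8 Mb, and within 1 Mb of any of them 46 of 189 other tested genes (24.3%) had an unadjusted p under 0.05, against 74 of 433 (17.1%) farther away on the chromosome. The tested genes with starts nearest to that of Cthrc1 were Slc25a32 and Dcaf13. They had log2 differences of 0.24 and 0.14 and were not called (edgeR adjusted p = 0.506 and 0.512). The genes nearest to Polr2k, Spag1 and Rnf19a, had 0.01 and 0.03. Some other neighbours had larger values and were not called either. Fzd6, next to Baalc, had 0.71 (edgeR adjusted p = 0.263) and 4933427E11Rik, which overlaps Jrk, had -1.93 (edgeR adjusted p = 0.178). After Fzd6, the tested gene nearest to Baalc was Cthrc1 itself, so these called genes are close neighbours. Pkhd1l1, near Nudcd1, had 0.79 (edgeR adjusted p = 0.502), while Eny2, nearer to it, had 0.06.

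**Figure D2:**
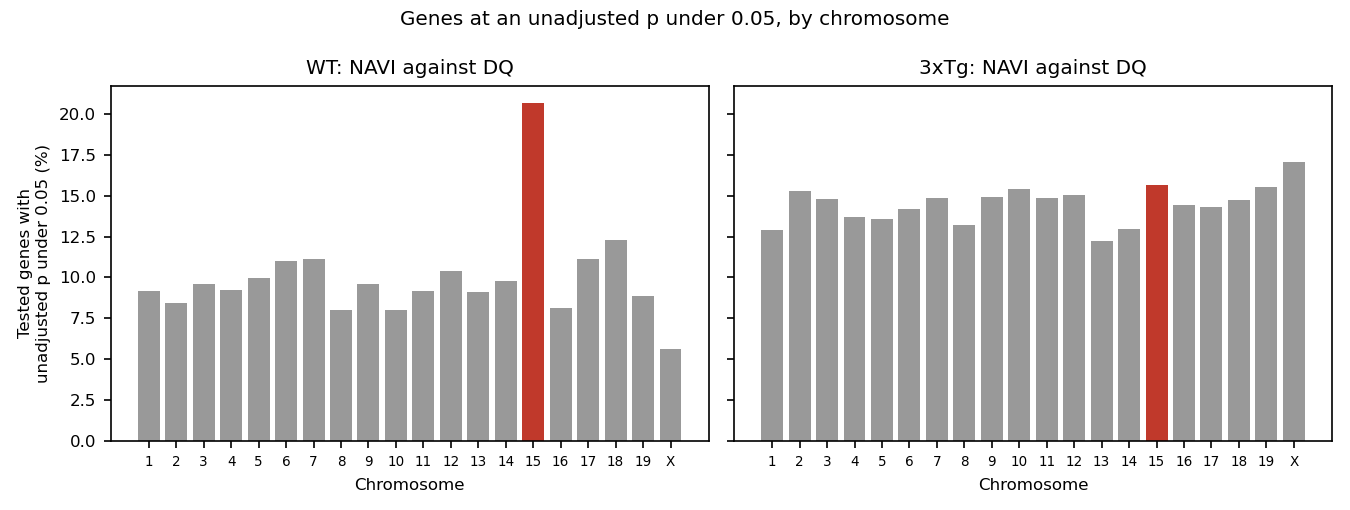
Share of tested genes with an unadjusted p under 0.05 on each chromosome, for NAVI against DQ in WT (left panel) and in 3xTg (right panel), with chromosome 15 in red. In WT the bar of chromosome 15 is the tallest at 20.7%, and in 3xTg it lies among the others at 15.6%.

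Promoter sequence was in the RefSeq table (GRCm38.p6) for 2 of the 11 genes, Mtmr12, which was higher with NAVI, and Card10, which was lower. They are shown as examples of a called gene in each direction, from 250 bases before to 50 bases after the start, 5′ to 3′ on the gene's strand. Mtmr12 spans chr15:12204778-12205077 on the plus strand and Card10 chr15:78802993-78803292 on the minus strand. Capitals mark GC boxes (GGGCGG, or CCGCCC on the other strand).
Mtmr12: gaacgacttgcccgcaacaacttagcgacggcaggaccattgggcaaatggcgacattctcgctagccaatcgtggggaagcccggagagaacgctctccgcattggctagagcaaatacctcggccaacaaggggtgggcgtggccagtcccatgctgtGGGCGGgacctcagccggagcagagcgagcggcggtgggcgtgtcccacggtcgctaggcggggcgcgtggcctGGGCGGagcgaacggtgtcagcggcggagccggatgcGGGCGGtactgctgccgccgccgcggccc
Card10: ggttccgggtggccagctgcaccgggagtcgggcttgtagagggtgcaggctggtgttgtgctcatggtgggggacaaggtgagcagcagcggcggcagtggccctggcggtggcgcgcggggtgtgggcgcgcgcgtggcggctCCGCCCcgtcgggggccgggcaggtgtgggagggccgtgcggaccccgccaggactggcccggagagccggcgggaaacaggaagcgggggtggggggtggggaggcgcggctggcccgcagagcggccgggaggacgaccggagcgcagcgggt
Mtmr12 holds 3 GC boxes and Card10 holds 1, and a GC box is found in 35.7% of 32851 promoters of that length. The CCAAT box (CCAAT, or ATTGG on the other strand) occurs 3 times in Mtmr12, in no overlap with a GC box, and 0 times in Card10, and in 37.4% of all promoters. These are letter matches and were not tested for binding.

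The vehicle group places each treated group. The Veh mean lay between the NAVI and the DQ mean for 11 of 11 called genes, and for 84.4% of the 1611 genes with an unadjusted p under 0.05 and 43.9% of all tested genes. Genes chosen for a large gap between NAVI and DQ leave more room for the Veh mean between them, so nothing is read from that count. On a log2 scale with the DQ mean at 0 and the NAVI mean at 1, the Veh mean lay from 0.32 (Poldip3) to 0.83 (Pkdrej), with a median of 0.61. The comparison of NAVI with Veh and that of DQ with Veh share the 4 Veh libraries, and each shares treated libraries with NAVI against DQ. In NAVI against Veh edgeR called 0 genes (1267 genes, 7.74%, had an unadjusted p under 0.05, and DESeq2 called 3). In DQ against Veh it called 1 gene (0.00611%; 554, or 3.38%, had an unadjusted p under 0.05, and DESeq2 called 4), and that gene was Cthrc1.

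Set side by side, Cthrc1 was 0.66 higher with NAVI than with Veh on the log2 scale (SE 0.211, edgeR adjusted p = 0.614) and 1.91 lower with DQ than with Veh (log2 difference -1.91, SE 0.238, edgeR adjusted p = 3.76e-04). Erich5 had differences of -0.91 for NAVI against Veh and 0.62 for DQ against Veh, neither of which passed (edgeR adjusted p = 0.614 and 1). Mtmr12 had 0.21 and -0.30, Polr2k 0.15 and -0.52, and Card10 -0.55 and 0.59, in the same order. Over the 11 genes the log2 differences ran from -0.91 to 0.66 for NAVI against Veh and from -1.91 to 0.62 for DQ against Veh.

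The same pair of treatments was also given to 3xTg mice. The 3xTg libraries were in the fit that called the 11 genes and helped set its estimate of spread, so they are not independent of those calls, although they enter none of the WT means. None of the 11 genes was called there. Cthrc1 averaged 5.04 ± 0.471 CPM with NAVI and 4.91 ± 0.604 CPM with DQ (SD, n = 4 each), a log2 difference of 0.04 (95% interval -0.39 to 0.47, edgeR adjusted p = 0.932). Erich5 averaged 2.23 ± 0.212 CPM with NAVI and 2.39 ± 0.362 CPM with DQ, a log2 difference of -0.10 (95% interval -0.57 to 0.37, edgeR adjusted p = 0.831). Over the 11 genes the size of the log2 difference was 0.04 to 0.24 in 3xTg, 7 of them with the opposite sign to WT, and the lowest edgeR adjusted p was 0.336, for Nudcd1. Nudcd1 was the 1 gene of the 11 whose NAVI and DQ libraries did not overlap in 3xTg (7.95% of all tested genes). In 3xTg edgeR called 0 genes between NAVI and DQ (2367, or 14.5%, had an unadjusted p under 0.05, and DESeq2 called 4).

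The difference between the genotypes was tested itself. It was called for 2 genes of all 16369 (0.0122%), both among the 11. Cthrc1 differed between the genotypes by 2.53 on the log2 scale (SE 0.314, edgeR adjusted p = 3.47e-04) and Mtmr12 by 0.54 (SE 0.086, edgeR adjusted p = 0.0111). Next came Nudcd1 (0.74, edgeR adjusted p = 0.0610), Polr2k (0.76, 0.0793) and the histone deacetylase gene Hdac8 on chromosome X (0.40, 0.0966), as log2 differences and adjusted p-values. All 11 had an unadjusted p under 0.05 in this test, as had 25.9% of all tested genes. Erich5, at -1.43, did not pass (edgeR adjusted p = 0.122). The interaction shares the WT libraries that chose the 11 genes, so their interaction values are not independent of that choice. Without DQ library 2 of WT, 44 genes were called in that test.

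**Figure D3:**
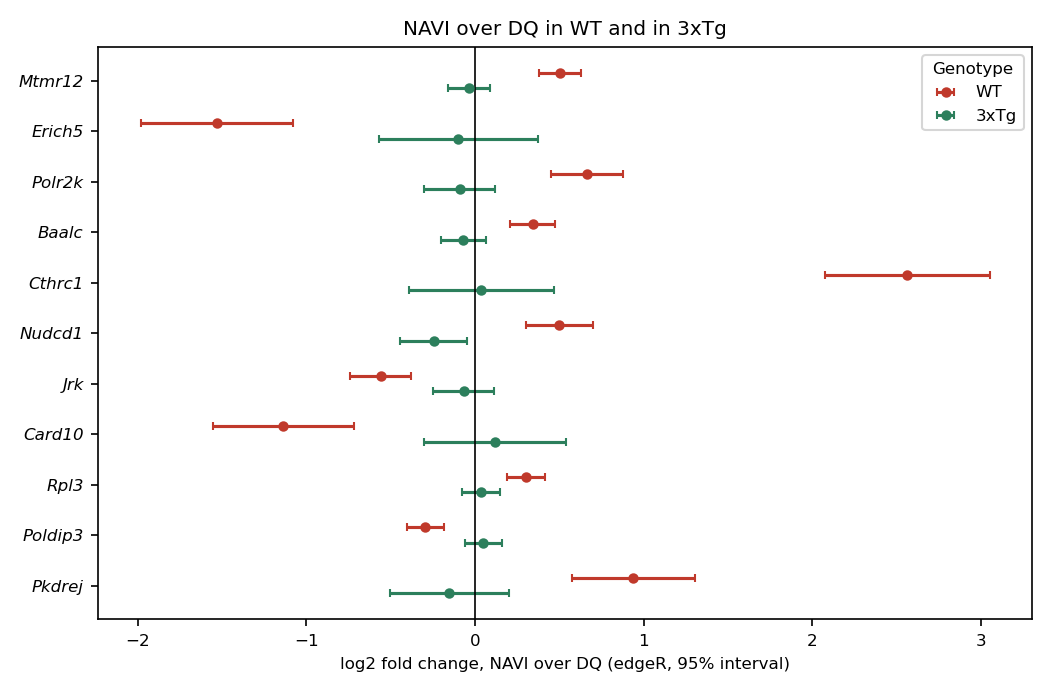
Log2 fold change of NAVI over DQ for the 11 called genes, in order along chromosome 15 from top to bottom, in WT (red) and in 3xTg (green), as points with 95% intervals from edgeR. All WT intervals lie off 0 because the genes were called there, while the 3xTg points lie between -0.24 (Nudcd1) and 0.12 (Card10).

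Whatever the treatment, 3xTg libraries were mostly nearer to WT NAVI than to WT DQ at these genes. Of 176 pairs of a 3xTg library and a called gene, 169 were nearer on the log2 scale to the WT NAVI mean than to the WT DQ mean. With the WT DQ mean at 0 and the WT NAVI mean at 1, the 3xTg mean lay from 0.73 (Baalc) to 1.27 (Polr2k). The count therefore also holds libraries beyond the NAVI range, as at Polr2k with a 3xTg median of 15.7 CPM. The genes were chosen for their gap in WT, so the count is a description. For Cthrc1 the 16 3xTg libraries ran from 4.21 to 9.48 CPM with a median of 4.99, above every DQ library of WT. For Erich5 they ran from 1.45 to 3.09 CPM with a median of 2.39, below every DQ and Veh library of WT. For Card10 the range was 2.56 to 5.65 CPM (median 4.42) and for Jrk 8.95 to 13.3 CPM (median 11.3). Of 44 such pairs of a WT Veh library and a called gene, 25 were nearer to the NAVI mean. They were unevenly divided: Veh library 3 was nearer at 10 of 11 genes and the other Veh libraries at 5 each.

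The same count over all chromosome 15 genes with an unadjusted p under 0.05 in WT put the 3xTg mean nearer to WT NAVI for 87 of 131 (66.4%), against 779 of 1476 such genes (52.8%) on other chromosomes. For the Veh mean the shares were 39.7% and 36.0%. These genes were chosen by the WT libraries that set both ends of the scale, so the shares are descriptions.

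**Figure D4:**
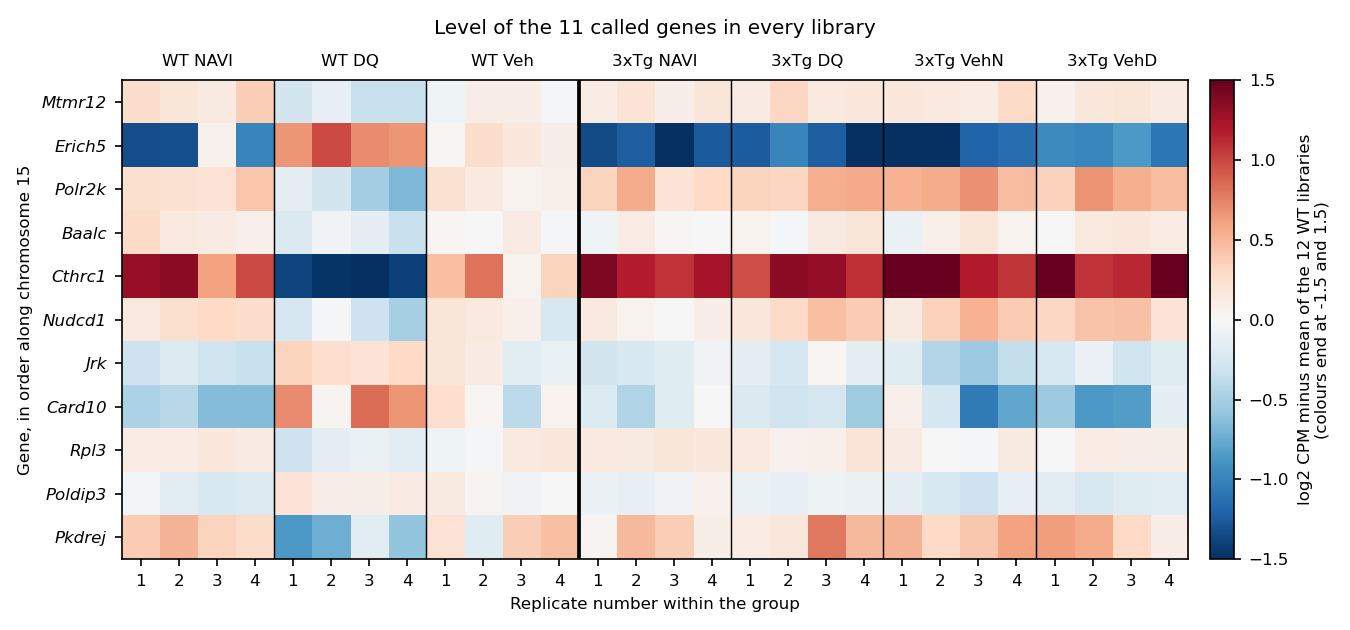
Heat map of the 11 called genes (rows, in order along chromosome 15) in all 28 libraries (columns, by group), coloured by log2 CPM minus the mean of the 12 WT libraries; colours end at -1.5 and 1.5. WT NAVI and WT DQ columns mostly have opposite colours, apart from NAVI 3 at Erich5, and WT Veh columns are mixed. The 3xTg columns of all 4 treatments are mostly nearer to WT NAVI than to WT DQ, as in 169 of 176 pairs.

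Across the 12 WT libraries, the genes whose log2 CPM followed Cthrc1 most closely were Zfp648 (Pearson r -0.92), Mtmr12 (0.90), Polr2k (0.90), H2afv (0.89) and Aim2 (0.89). For Erich5 they were Laptm4b (-0.93), A630020A06 (0.92), Tymp (0.88), Fzd6 (-0.87) and Lrp2 (-0.87), of which all but Lrp2 are on chromosome 15. The points share the group means and the library preparation, and the correlations are given as descriptions.

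The targets of the drugs and the pathways of senescence were described by 41 gene lists. Of their 598 tested members 2 were called, Cthrc1 among the fibroblast and matrix genes and Rpl3 among the ribosomal proteins. An unadjusted p under 0.05 was found for 69 (11.5%, against 9.84% of all tested genes), 31 higher and 38 lower with NAVI. The median log2 difference of the members was -0.02, against 0.01 over all tested genes.

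None of the 7 tested anti-apoptotic BCL-2 genes was called. Their median log2 difference was 0.26 with 6 of 7 positive, or 0.07 without DQ libraries 1 and 4. The median is the value of Bcl2a1b, which, like Mcl1, Bcl2a1a and Bcl2a1d, does not encode one of the proteins that navitoclax mainly binds. Bcl2 had 27.4, 29.1, 28.2 and 22.8 CPM with NAVI against 23.6, 22.5, 20.2 and 22.9 CPM with DQ (log2 difference 0.27, 95% interval 0.07 to 0.47, edgeR adjusted p = 0.447). NAVI library 4 lay within the DQ range. Bcl2l2, which encodes BCL-W, had a difference of 0.02 (95% interval -0.05 to 0.10, edgeR adjusted p = 0.755). Mcl1 had 0.15 and Bcl2l1, which encodes BCL-XL, had -0.07 (95% interval -0.26 to 0.12, edgeR adjusted p = 0.717).

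Of 10 tested pro-apoptotic family members 0 were called, with a median of -0.04 (0.07 with the GC trend removed). The values were -0.43 for Bad and -0.38 for Bok, which antagonise survival proteins or act on membranes, -0.25 for the pore former Bax (95% interval -0.55 to 0.04) and 0.07 for Bbc3, the p53-induced BH3 gene that encodes PUMA. Of 20 kinases inhibited by dasatinib 0 were called and 0 had an unadjusted p under 0.05. Their median was -0.16, with 13 of 20 negative, or -0.01 with 10 negative once each library's GC trend was removed. Src (-0.26) and Tec (-0.36) had the smallest p. Of 17 targets of the antioxidant factor NRF2 0 were called, with a median of 0.00. Gsta4, a glutathione transferase gene, had 0.18 and Slc7a11, the cystine transporter gene, had -0.41.

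The p53 targets (14 tested, median 0.08) and the cell cycle regulators of senescence (14 tested, median 0.05) also held 0 called genes. Cdkn1a, which encodes the arrest protein p21, had a log2 difference of 0.20 with a 95% interval of -0.25 to 0.65 (edgeR adjusted p = 0.666). Cdkn2a, which encodes p16, was below the filter, at 1, 1, 0 and 2 counts with NAVI, 0, 1, 1 and 1 with DQ and 2, 2, 2 and 4 with Veh, so a difference was not detectable at this depth. The secretory factors of senescent cells held 0 called genes of 28 tested. Their median was -0.26, with 23 negative, and Timp1, an inhibitor of matrix metalloproteinases, had -1.0 and Tgfb1 had -0.38. The list score, a mean of log2 CPM relative to the WT mean, was -0.22, -0.06, -0.08 and -0.12 with NAVI and -0.09, -0.03, 0.22 and 0.46 with DQ. DQ libraries 3 and 4 were the high ones and DQ libraries 1 and 2 lay near the NAVI libraries, and the summed levels overlapped, at 944 to 1064 CPM with NAVI and 936 to 1110 CPM with DQ.

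Glial lists likewise held 0 called genes. Disease-associated microglia genes (24 tested) had a median of -0.03 (0.04 with the GC trend removed), with Apoe, the lipid carrier gene, at -0.38, Lyz2 at -0.65 and Trem2, the lipid-sensing receptor gene, at -0.01 (edgeR adjusted p = 0.983). Homeostatic microglia markers (17 tested) had a median of 0.04 (-0.05 without DQ libraries 1 and 4), with Olfml3 at -0.56 and the purinergic receptor gene P2ry13 at 0.37. Reactive astrocyte genes (18 tested) had a median of -0.32, with 16 negative and 4 at an unadjusted p under 0.05, all lower. Aspg had -0.91 (edgeR adjusted p = 0.360). Lcn2, the lipocalin of inflamed astrocytes, had 0.327, 0.498, 1.87 and 0.928 CPM with NAVI and 0.788, 1.32, 18.6 and 4.6 CPM with DQ (log2 difference -2.80, SE 1.02, edgeR adjusted p = 0.452), so that DQ library 3 was far above the rest and DQ libraries 1 and 2 lay within the NAVI range. Gfap, the intermediate filament of astrocytes, had 366, 383, 338 and 369 CPM with NAVI against 438, 393, 384 and 496 CPM with DQ (log2 difference -0.23, edgeR adjusted p = 0.558). Summed over this list the level was 684 to 812 CPM with NAVI, 813 to 1056 CPM with DQ and 653 to 882 CPM with Veh. The list score was -0.37, -0.15, -0.14 and -0.19 with NAVI and -0.10, -0.14, 0.57 and 0.49 with DQ. DQ libraries 3 and 4 stood apart from the NAVI libraries, and DQ libraries 1 and 2 did not. With Veh the score also varied, at -0.30, 0.20, -0.22 and 0.34. Complement genes (17 tested, median -0.27, or -0.11 with the GC trend removed) included Serping1 at -0.72, and DQ libraries 3 and 4 had the highest scores of this list too, at 0.44 and 0.26. Its scores with Veh were -0.25, 0.17, -0.07 and 0.26. All 14 myelin genes had a positive value, with a median of 0.19, and 13 did under upper-quartile normalization. Their summed level was 7937, 6459, 5024 and 4699 CPM with NAVI and 5584, 5568, 4788 and 5381 CPM with DQ. NAVI libraries 1 and 2, which were also high in striatal and neocortex markers, were above all DQ libraries, and NAVI libraries 3 and 4 were below most of them.

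Genes of neighbouring tissue varied with single libraries. All 18 thalamus and habenula markers were tested, with a median of -0.86 and 17 negative, 3 of them at an unadjusted p under 0.05 and 0 called. Their summed level was 477 to 563 CPM with NAVI and 525 to 807 CPM with DQ, highest in DQ libraries 1 and 4. Tcf7l2, a transcription factor gene of the thalamus, averaged 3.94 ± 0.259 CPM with NAVI and 13.5 ± 9.01 CPM with DQ (SD, n = 4 each), and Pou4f1, a habenular factor gene, had 0, 0.111, 0.0204 and 0.0476 CPM with NAVI and 0.0438, 0.288, 0.104 and 7.37 CPM with DQ. DQ library 4 alone was high for Pou4f1. Pou4f1 and Gbx2 were at 0 in at least 1 NAVI library. Without DQ libraries 1 and 4, 4 genes remained called between NAVI and DQ (Cthrc1, Mtmr12, Erich5 and Polr2k), and with thalamus and choroid plexus scores as covariates 7 were called, all on chromosome 15, of which 5 were among the 11.

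Choroid plexus markers (17 tested, median -0.85, all negative) split the libraries of both groups. Ttr, the transthyretin gene of the choroid plexus, had 113, 3301, 190 and 183 CPM with NAVI and 3806, 237, 101 and 4731 CPM with DQ. NAVI library 2 and DQ libraries 1 and 4 were high, and the summed level of the list was 637 to 5869 CPM with NAVI and 466 to 7519 CPM with DQ. Without DQ libraries 1 and 4 the median was 1.36 and all 17 were positive. Striatal markers were positive in 9 of 9, with a median of 0.67 and summed levels of 178 to 411 CPM with NAVI and 195 to 213 CPM with DQ. NAVI libraries 1 and 2 were the high ones, and Adora2a, the adenosine receptor gene of striatal projection neurons, had 1.87 (edgeR adjusted p = 0.506). Neocortex markers (10 tested, median 0.40) had 5 members higher with NAVI at an unadjusted p under 0.05, with Rorb at 0.47 and Lamp5 at 0.56, and summed levels of 192 to 361 CPM with NAVI and 182 to 230 CPM with DQ. The part of dissection in the list values was not tested further.

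**Figure D5:**
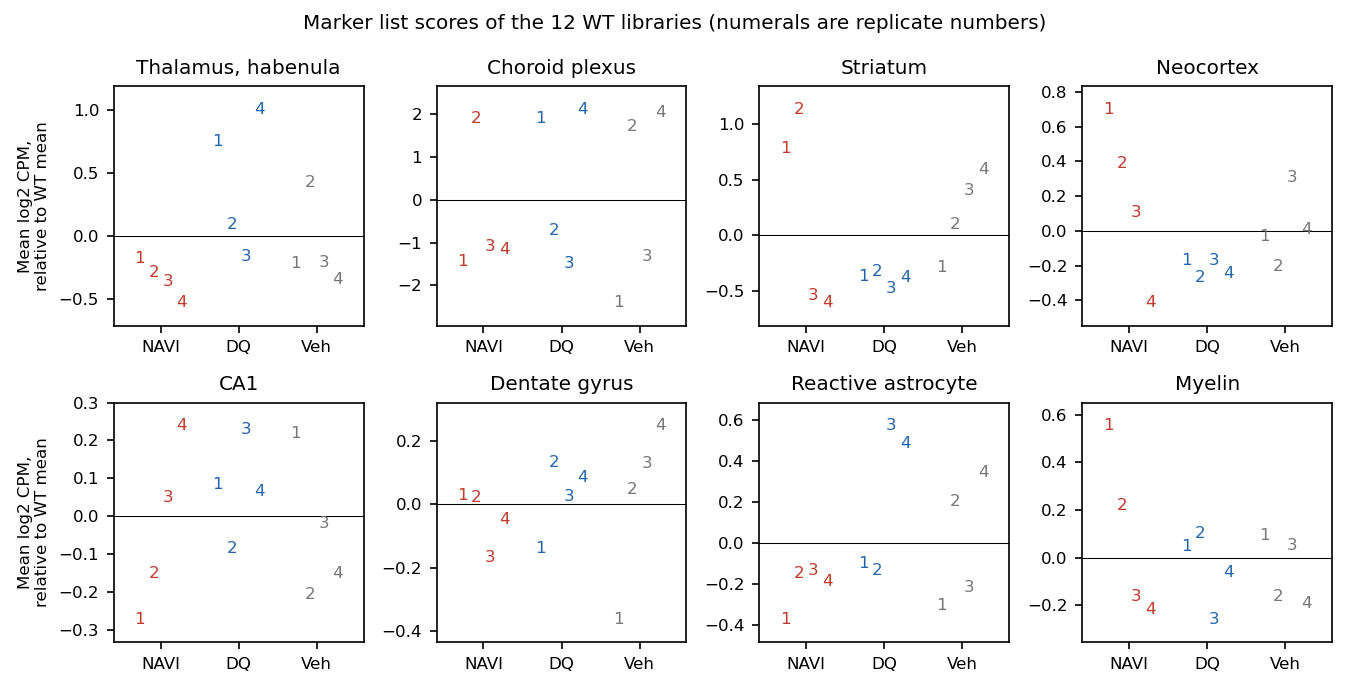
Scores of 8 marker lists in the 12 WT libraries with NAVI (left, red), DQ (blue) and Veh (grey), where a score is the mean over the list of log2 CPM relative to the mean of the WT libraries and numerals are replicate numbers. DQ 1 and DQ 4 have the highest thalamus and habenula scores at 0.75 and 1.0, and the choroid plexus panel splits each group.

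The libraries also differed in how counts followed the GC content of genes. Over 15590 genes the log2 difference between NAVI and DQ had a Spearman rho of -0.499 with GC content, as a description across genes, which are not independent. The slope of log2 CPM averaged -0.0620 with NAVI and 0.0986 with DQ per 10% of GC. The ranges overlapped, at -0.177 to 0.0204 with NAVI, -0.127 to 0.254 with DQ and -0.0621 to 0.246 with Veh. DQ library 2 was the only DQ library with a negative slope. With each library's GC trend removed, 14 genes were called, all on chromosome 15, and 9 of them were among the 11. Baalc and Poldip3 were the members lost. The values of Bax and Bcl2l1 changed sign in that fit, to 0.02 and 0.07.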

How the data were processed

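Total hippocampal RNA was made into stranded poly(A) libraries and sequenced as paired reads of 100 bases, per the labels' protocols. The deposited file holds the authors' raw counts per gene symbol, 1 column per library, neither normalized nor pooled; the submitters' processing notes name STAR, Subread, featureCounts and mm10, with no versions. No column was left out (0 unused).

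The main test was edgeR's quasi-likelihood F test (edgeR 4.0.16, R 4.3.3), fitted once to the counts of all 28 libraries, 1 coefficient per group, after TMM normalization and filterByExpr (7693 of 24062 genes removed). P-values are two-sided and Benjamini-Hochberg adjusted over 16369 genes; CPM use the TMM factors, and SE and 95% intervals come from the test. Positions are from RefSeq (16303 genes matched by symbol, 836 of them by a synonym), and overlaps and GC content from GENCODE. List scores are means of log2 CPM (prior count 2). On simulated data for NAVI against DQ in WT, 23.9%, 61.2% and 80.3% of genes changed 1.25-, 1.5- and 2-fold came back as calls, and 5.17% of the calls made were false. Simulated counts were drawn independently for each gene with the spread estimated by the fit, and held no GC trend or neighbouring tissue. The 5.17% is therefore not the error rate of the real calls.

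Named are all called genes, the next 10 by p, the 2 members with the smallest p of each list described, 5 genes of the genotype test, 5 by likeness to Cthrc1 and to Erich5, and a few fixed genes; Wfs1 and Gbx2 are among the list markers, and neighbouring genes were added after their values were seen. The members and lists were chosen with earlier results of these data known. Alternatives were other normalizations, filters, DESeq2 1.42.0, limma-voom (3.58.1), fewer libraries, covariates, a GC correction and a replicate block. The replicates of a group differed by more than sampling noise (lowest chi-square per degree of freedom 22.0).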

Additional observations from a re-analysis of the deposited data

Results flagged for a closer look

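In groups of 4, a library whose gap to the nearest other took up nearly the whole range of its group was marked with Dixon's test, which chance meets in about 1 in 20 groups; 5 of 60 groups met it. Erich5 was 5.91 CPM in NAVI library 3 of WT, against 2.25 to 2.83 CPM in the other NAVI libraries. Erich5 was also high in DQ library 2, at 11.2 CPM against 8.90 to 9.22 CPM. Polr2k was 14.8 CPM in NAVI library 4, against 12.9 to 13.1 CPM. Laptm4b was 96.1 CPM in NAVI library 3, against 115 to 116 CPM in the other NAVI libraries. Ttr was 3301 CPM in NAVI library 2, against 113 to 190 CPM.

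The difference between NAVI and DQ was itself different between WT and 3xTg at 2 genes. It differed by 2.53 on the log2 scale for Cthrc1 (edgeR adjusted p = 3.47e-04) and by 0.54 for Mtmr12 (edgeR adjusted p = 0.0111).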

How the results depend on the processing

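Against 11 genes between NAVI and DQ in WT, DESeq2 called 38 and limma-voom 39, each including all 11; 21 of each are on chromosome 15, and 17 and 18 are elsewhere. Only the 12 WT libraries, or only the 8 compared, left 1, the marker scores as covariates 7, and leaving out single libraries 5 to 18. Chosen after seeing the data, the fit without the 2 DQ libraries of highest thalamus score left 4, and the 15736 genes outside chromosome 15, fitted alone, gave 0 (edgeR; 1443 at an unadjusted p under 0.05). Counts were 11 to 14 with RLE or upper-quartile normalization, other filters, robust estimation and GC removal. NAVI against Veh gave 3 with DESeq2 and 0 to 1 without single libraries, in place of 0, and DQ against Veh 4 and 1 to 5, in place of 1. In 3xTg, NAVI against DQ gave 4 with DESeq2 and 0 without single libraries, in place of 0. The genotype test gave 75 with DESeq2 and 1 to 44 without single libraries, in place of 2. Of the list members, 1 was called on the 8 libraries and 1 to 2 without single libraries, in place of 2. The causes were not tested.

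Deviations from the group means in same-numbered NAVI and DQ libraries of WT had r of -0.098, -0.190, 0.166 and -0.042. Those r are over all tested genes, and whether same-numbered libraries shared a batch was not tested. With the replicate block 13 genes were called in WT, 1 in 3xTg and 5 in the genotype test, and 14 in WT with the GC trend also removed. With the block alone, 2241 genes had an unadjusted p under 0.05 in WT, against 1611 without it. The numbers were 3208 against 2367 in 3xTg and 5091 against 4232 in the genotype test. A gene changed 1.25-fold was recovered in 23.9% of simulated cases, so differences of that size can be missed at 4 libraries a group.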

Other observations

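Some genes listed for immune functions had large but variable values. Cd4, a T cell surface marker gene, averaged 1.49 ± 1.21 CPM with NAVI and 0.253 ± 0.0377 CPM with DQ (SD, n = 4 each), a log2 difference of 2.55 that did not pass (edgeR adjusted p = 0.371). NAVI libraries 1 and 2, which were also high in striatal markers, had 2.14 and 2.86 CPM of Cd4. NAVI libraries 3 and 4 had 0.713 and 0.262 CPM. The striatal marker Adora2a had 4.78, 8.30, 0.815 and 1.09 CPM in the NAVI libraries, in order. Among 3xTg libraries, DQ library 1 was highest for both genes, at 3.26 CPM of Cd4 and 12.5 CPM of Adora2a. A link to tissue content was not tested, nor which cells the Cd4 counts came from. Cd8a, the marker gene of cytotoxic T cells, averaged 0.0432 ± 0.0334 CPM with NAVI and 0.156 ± 0.0687 CPM with DQ (log2 difference -1.83, edgeR adjusted p = 0.485). Of 14 T and B lymphocyte genes 5 were tested. Trim30a, an interferon-induced restraint on inflammatory signalling, averaged 4.15 ± 0.759 CPM with NAVI and 18.5 ± 17.3 CPM with DQ (log2 difference -2.15, edgeR adjusted p = 0.397). Its DQ libraries ran from 3.04 to 33.6 CPM and its NAVI libraries from 3.60 to 5.26 CPM, so the groups overlapped. It varied in other groups too, at 12.1, 3.80, 12.2 and 3.50 CPM with Veh and 3.77 to 38.1 CPM over the 3xTg libraries. The 28 interferon-stimulated genes had a median of -0.01, or 0.07 without DQ libraries 1 and 4.

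Stress and activity lists held 0 called genes. The ATF4 stress response genes (18 tested, median -0.08 with 14 negative, or -0.00199 with 9 negative once the GC trend was removed) included Chac1, a glutathione-degrading enzyme gene, at -0.57 (edgeR adjusted p = 0.466). Heat shock chaperones (15 tested, median 0.05) included Hspb1 at -0.83, and immediate early genes of active neurons (24 tested, median 0.09, or 0.18 with the GC trend removed and -0.02 without DQ libraries 1 and 4) included Egr1 at 0.38. The haemoglobin genes Hba-a1, Hba-a2, Hbb-bs and Hbb-bt were at 0 in all NAVI and DQ libraries of WT.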
